A study of Mus musculus with 9 samples.

Results

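Gene expression in KOb, immature erythroid cells of Trim28-deleted mice sorted as CD71(hi)TER119-, was compared with FFa, the floxed control sorted as CD71(hi)TER119+. All genes with a completed test of this contrast in the authors' deposited table were kept, which gave 10584 of the 23285 genes listed and 10584 of the 31813 gene results tested over the 3 comparisons of the study. FFa and KOb held 3 of the 9 libraries each, and the remaining group, KOa, the other 3. Cells came from the bone marrow of C57BL/6 mice, whose age is not given in the labels. FFa mice were TRIM28(flox/flox) without Cre, and KOb mice were TRIM28(flox/flox):Mx1Cre. KOb is described by the labels as severely deleted, and KOa, of the same mutant genotype but sorted as CD71(hi)TER119+, as modestly deleted. The undeleted share was given as 1 to 4% for KOb and 5 to 8% for KOa, and the residual mRNA as 18% and 26%. Mx1Cre was induced with 5 injections of poly(I:C) given every other day, and mice were analysed 2 weeks later. Whether FFa mice also received poly(I:C) is not given. The Mx1 promoter answers to interferon in many cell types, so the deletion was not limited to erythroid cells. KOb differs from FFa in the Cre transgene, the extent of deletion and the sorting gate at once, and these cannot be told apart.

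TRIM28 is a corepressor recruited to DNA by KRAB zinc finger proteins, where it assembles the histone methyltransferase SETDB1, heterochromatin protein 1 and the NuRD complex. Erythroblasts grow out of KIT-positive progenitors, take up iron through CD71 (the transferrin receptor, gene Tfrc), fill with hemoglobin, build the spectrin skeleton of the red cell and finally lose their nucleus. TER119 is a surface antigen that appears as these cells mature, so a gate without TER119 takes in earlier erythroid cells and may hold other CD71-bright cells of the marrow.

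FPKM, a fragment count divided by transcript length and library size, was deposited as 1 value per gene and group, with the libraries of a group already pooled. Spread between libraries, depth and the number of libraries showing a direction are therefore unknown. A log2 ratio below is KOb over FFa from the authors' deposited table, and the ± after it is the standard error implied by the deposited statistic. Genes called higher or lower have a deposited q below 0.05. Where no q is given beside a called gene, it was 0.000619, the smallest in the authors' deposited table for this contrast, reached by 1186 genes. Summed over all genes, FPKM came to 1239023 in FFa and 659009 in KOb, and globin genes took 64.6% and 53.3% of these sums. Outside globin the sums were 438557 and 308022, and setting them equal would raise every log2 ratio by 0.51. Nothing in the files shows which scaling matches RNA per cell, and in a sorted bulk population fewer cells of a type and less RNA per cell cannot be told apart.

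The targeted gene and the gate were checked first. Trim28 stood at 26 FPKM in FFa, 6.64 in KOa and 4.76 in KOb, a log2 ratio of -2.45 ± 0.30 in KOb. Tfrc had 81.4 FPKM in FFa, 62.5 in KOa and 61.8 in KOb (-0.40 ± 0.30, q = 0.102 in the authors' deposited table) and was not called. The gene of CD71 was thus expressed in all 3 groups, the TER119- cells included.

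In KOb, 1352 genes were higher and 1614 lower than in FFa, 12.8% and 15.2% of the genes tested. The median log2 ratio of all 10584 genes was -0.01, and 0.50 with equal FPKM sums outside globin. Called genes differed by a median of 0.98 on the log2 scale, and 591 of the higher and 866 of the lower ones by at least 1. At least 8-fold differences, a log2 ratio of 3 or more in size, were found for 48 higher and 98 lower genes. Taken as a standard normal deviate, the deposited statistic called 445 genes higher and 702 lower, or 4.2% and 6.63%. This reading is given beside the lists below, since it takes away most of the calls.

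**Figure D1:**
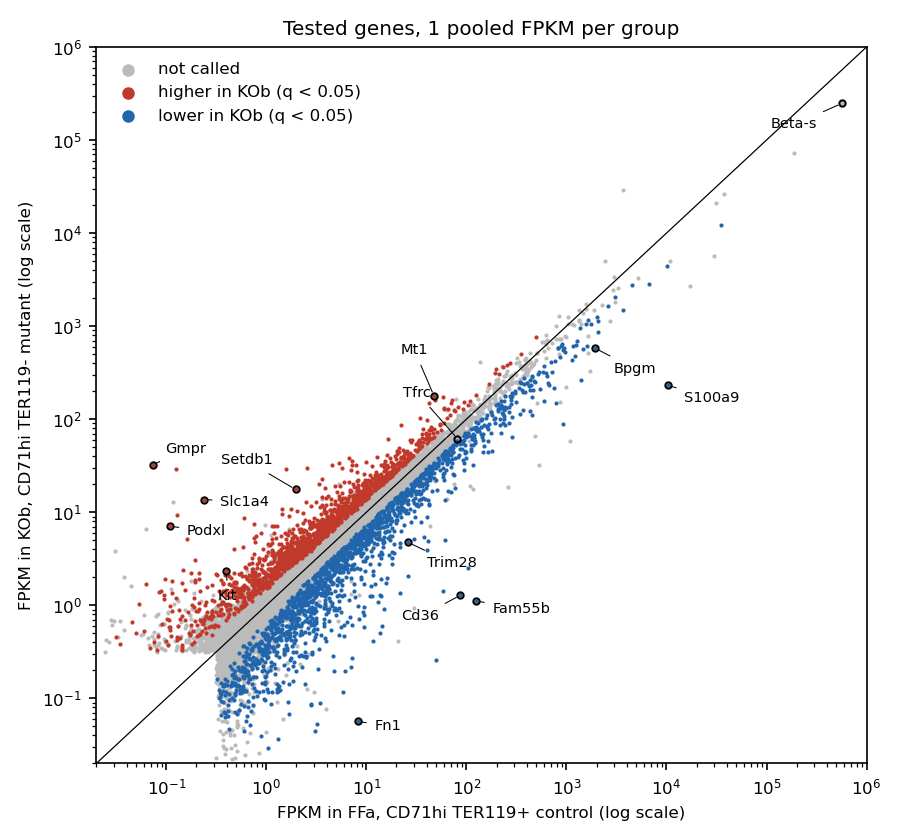
FPKM of each tested gene in FFa (x, log scale) and KOb (y, log scale), 1 pooled value per group, with the 1352 higher genes in red and the 1614 lower ones in blue; genes at 0 in either group are left out. Gmpr and Slc1a4 lie far above the line of equal values, Fn1 and Fam55b far below, and the most abundant genes lie mainly on or below it.

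The balance of higher and lower calls differed between expression levels. Below 1 FPKM, taken as the mean of both groups, 178 of 2480 genes were higher (7.18%) and 301 lower (12.1%). Between 1 and 50 FPKM, higher and lower calls were about equally frequent. In the bin from 1 to 5 FPKM 566 genes were higher and 562 lower of 3899, and from 10 to 50 FPKM the counts were 307 and 308 of 1967. Among 408 genes at 100 FPKM or more, however, 21 were higher (5.15%) and 151 lower (37.0%), with a median log2 ratio of -0.33. Without histone and small RNA genes this bin held 343 genes, of which 21 were higher and 121 lower, with a median of -0.27. Equal FPKM sums outside globin would raise both medians by 0.51, which is more than their size. The most abundant transcripts of the sorted cells were thus the ones called lower most often, whereas at 5 to 10 FPKM 247 genes were higher and 208 lower of 1519. They included leukocyte genes such as S100a8 and S100a9, and which cells the abundant transcripts came from was not tested.

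**Figure D2:**
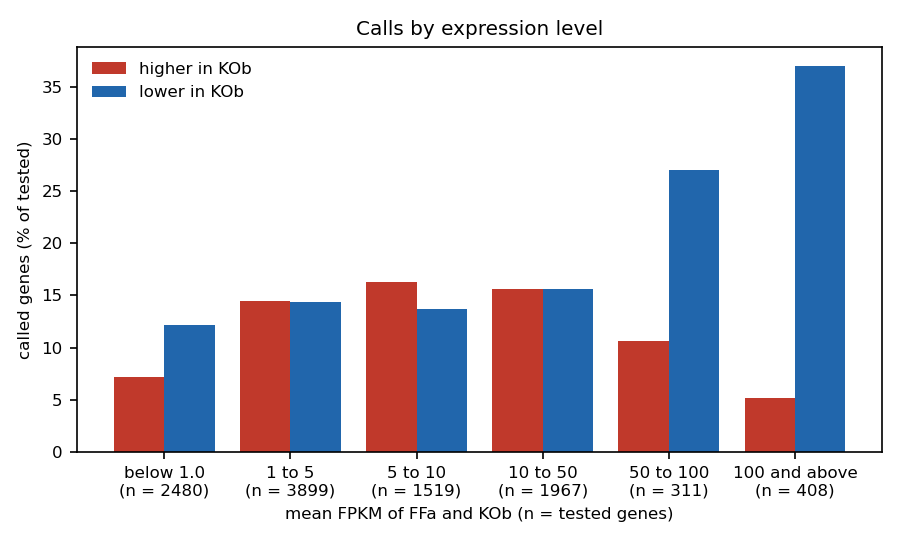
Share of tested genes called higher (red) or lower (blue) in KOb, in percent, by mean FPKM of FFa and KOb, with the number of tested genes under each pair of bars. The lower calls climb to 27.0% at 50 to 100 FPKM and 37.0% at 100 FPKM and above, while the higher calls there make up 10.6% and 5.15%.

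Markers of other blood cells differed between the groups, and their part in the results below was not tested. Over all genes, 12.8% were higher and 15.2% lower. B cell markers were lower in 21 of 23 tested (0 and 18 higher and lower when the statistic is taken as a normal deviate, below called the normal reading), with a median log2 ratio of -3.16, and their summed FPKM was 373 in FFa, 56.5 in KOa and 46.2 in KOb. Vpreb3, a gene of pre-B cells, fell from an FPKM of 104 in FFa to 2.54 in KOb, with 2.74 in KOa (-5.35 ± 0.43), and Pax5, the transcription factor of B cell identity, was still detected at 0.142 FPKM. Macrophage and monocyte markers were lower in 20 of 24 (0 and 15), with sums of 522, 224 and 188 FPKM in the same order. Csf1r, the receptor that macrophages need for survival, fell from an FPKM of 3.86 in FFa to 1.06 in KOb, with 1.81 in KOa (-1.86 ± 0.39). Late neutrophil markers were lower in 13 of 16 (0 and 8), and their sums of 49345, 16798 and 13612 FPKM were mostly S100a8 and S100a9, the calprotectin subunits. S100a9 fell from an FPKM of 10284 in FFa to 231 in KOb, with 278 in KOa (-5.48 ± 0.21). Dendritic cell markers were lower in 7 of 12 (0 and 4), with sums of 57.2, 25.2 and 18 FPKM. T and NK cell markers were lower in 7 of 13 and higher in 1 (1 and 2), with sums of 29.4, 21.7 and 19.4 FPKM. All 5 of these sums were highest in the control and lowest in KOb, and no member of these lists stood at 0 in FFa or KOb.

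Markers of some other lineages included higher genes, beside 12.8% higher and 15.2% lower over all genes. Of 10 genes of early neutrophil granules, 3 rose and 1 fell, with the same counts under the normal reading. Ctsg, cathepsin G of azurophil granules, rose from an FPKM of 3.35 in FFa to 20.2 in KOb, with 15.9 in KOa (2.59 ± 0.36), and Mpo, myeloperoxidase, rose from an FPKM of 8.15 in FFa to 27.3 in KOb, with 21.7 in KOa (1.75 ± 0.29). Chi3l3, a chitinase-like gene of later myeloid cells in the same list, fell from an FPKM of 117 in FFa to 32 in KOb, with 36.4 in KOa (-1.87 ± 0.26). Megakaryocyte and platelet markers went up in 4 of 13 and down in 3 (4 and 0 under the normal reading), and their sums were 46 FPKM in FFa, 76.8 in KOa and 64.6 in KOb. Pf4, platelet factor 4, rose from an FPKM of 3.85 in FFa to 18.3 in KOb, with 22.9 in KOa (2.25 ± 0.36). The platelet glycoprotein gene Gp5 rose from an FPKM of 0.213 in FFa to 2.22 in KOb, with 0.742 in KOa (3.39 ± 0.84), and was higher in KOb than in KOa as well (log2 ratio 1.58, q = 0.000619 in the authors' deposited table). Lower among them were Gp1bb, another platelet glycoprotein gene, with 3.98 FPKM in FFa, 1.44 in KOa and 1.36 in KOb (-1.55 ± 0.75, q = 0.00548 in the authors' deposited table), and Nbeal2, of platelet granules, with 1.85 FPKM in FFa, 1.09 in KOa and 1.06 in KOb (-0.80 ± 0.35, q = 0.00161 in the authors' deposited table), both not called under the normal reading. The list's median log2 ratio was -0.19, or 0.32 with equal FPKM sums. Markers of mast cells, basophils and eosinophils split, with 4 higher and 4 lower of 12 (3 and 2). Cpa3, a mast cell protease, rose from an FPKM of 2.31 in FFa to 6.09 in KOb, with 4.26 in KOa (1.40 ± 0.40), and Prss34, a basophil protease, fell from an FPKM of 13.8 in FFa to 1.29 in KOb, with 1.95 in KOa (-3.42 ± 0.48). Of 4 stromal and endothelial markers tested, 1 rose and 1 fell, and of 6 plasma cell markers 1 rose and 2 fell. Whether other cells in the gates account for any result below was not tested.

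**Figure D3:**
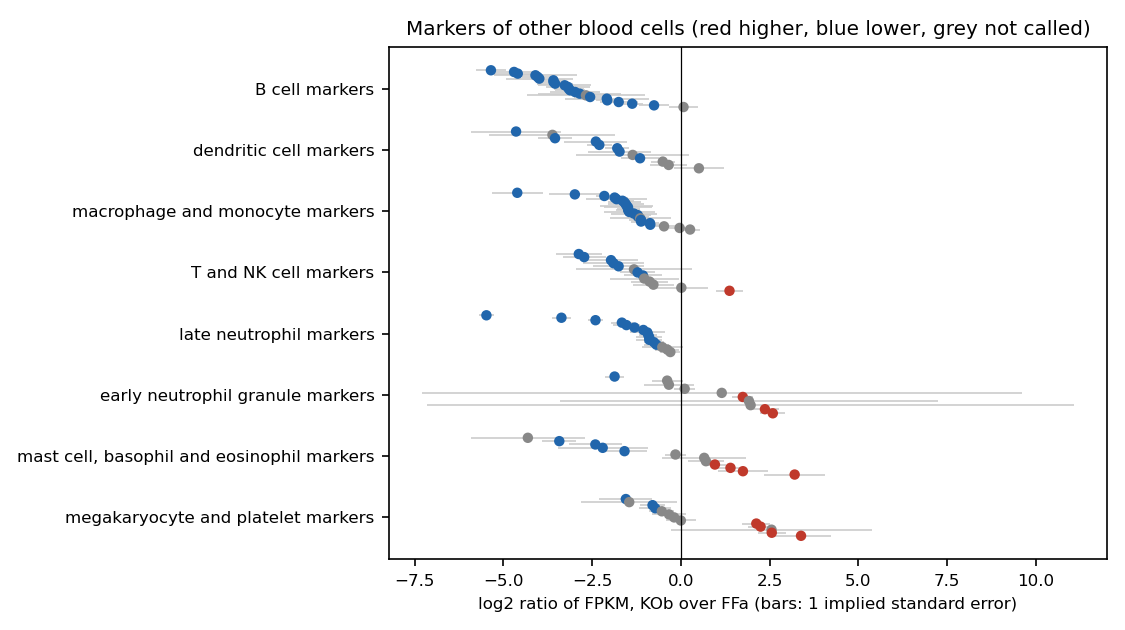
Log2 ratio of FPKM, KOb over FFa, for each tested marker of other blood cells, with 1 implied standard error as a horizontal bar, by list (red called higher, blue called lower, grey not called). B cell, macrophage and late neutrophil markers lie almost all to the left of 0, while early neutrophil and megakaryocyte markers include red points between 1.75 and 3.39.

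The steepest rises were in genes close to silent in the control. Gmpr (chromosome 13, 45507469 to 45546381 of mm10), which encodes the guanosine monophosphate reductase that turns GMP into IMP, rose from an FPKM of 0.0731 in FFa to 32.2 in KOb, with 37.4 in KOa (8.78 ± 1.33, q = 0.037 in the authors' deposited table). Fam159b (chromosome 13, 104845283 to 104863893) rose from an FPKM of 0.126 in FFa to 29.5 in KOb, with 66.7 in KOa (7.87 ± 1.14, q = 0.0146 in the authors' deposited table). Slc1a4 (chromosome 11, 20302180 to 20332713), a transporter of serine, alanine and other neutral amino acids, rose from an FPKM of 0.236 in FFa to 13.7 in KOb, with 17.3 in KOa (5.86 ± 0.63). Entpd3 (chromosome 9, 120539818 to 120568326), an ectonucleotidase that degrades extracellular ATP, rose from an FPKM of 0.0633 in FFa to 1.71 in KOb, with 2.44 in KOa (4.76 ± 1.14, q = 0.00289 in the authors' deposited table). KOa, also deleted, lay above KOb in each, but only Fam159b was called between the mutants (q = 0.000619 in the authors' deposited table). For Gmpr, Slc1a4 and Entpd3 that q was 0.401, 0.167 and 0.0919. All 4 genes had a control level of 0.236 FPKM or less. Their 250 bases before the RefSeq start site (GRCm38.p6, which is mm10) are printed 5′ to 3′. These are the 4 largest rises in log2 ratio among the genes whose windows are described here. Nccrp1 and Podxl, each with a larger rise than Entpd3, were not matched to the RefSeq promoter table. Bambi, whose rise was also larger than that of Entpd3, was left out as well, and whether it matched is not reported here. Capitals mark matches of CCNCNCCC, a CACCC-type box bound by erythroid KLF factors, on either strand; overlapping matches are merged. AGATAA, the GATA site, was searched on both strands as well and was in none of the 4.
Gmpr (chr13:45507194-45507443, plus strand): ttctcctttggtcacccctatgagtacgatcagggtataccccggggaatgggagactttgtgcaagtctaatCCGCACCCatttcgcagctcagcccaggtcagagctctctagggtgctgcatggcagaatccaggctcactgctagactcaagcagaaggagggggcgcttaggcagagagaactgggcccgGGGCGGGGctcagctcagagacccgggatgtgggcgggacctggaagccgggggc
Fam159b, in RefSeq Shisal2b (chr13:104863894-104864143, minus strand): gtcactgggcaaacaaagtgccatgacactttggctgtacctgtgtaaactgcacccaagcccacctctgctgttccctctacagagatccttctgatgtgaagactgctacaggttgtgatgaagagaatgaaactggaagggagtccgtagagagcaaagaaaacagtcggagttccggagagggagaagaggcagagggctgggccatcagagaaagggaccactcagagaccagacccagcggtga
Slc1a4 (chr11:20332714-20332963, minus strand): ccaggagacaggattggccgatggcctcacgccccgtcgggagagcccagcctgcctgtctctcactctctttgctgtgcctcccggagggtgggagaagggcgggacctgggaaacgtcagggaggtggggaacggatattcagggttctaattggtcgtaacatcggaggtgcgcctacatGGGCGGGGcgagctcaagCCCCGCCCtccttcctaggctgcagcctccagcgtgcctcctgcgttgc
Entpd3 (chr9:120539568-120539817, plus strand): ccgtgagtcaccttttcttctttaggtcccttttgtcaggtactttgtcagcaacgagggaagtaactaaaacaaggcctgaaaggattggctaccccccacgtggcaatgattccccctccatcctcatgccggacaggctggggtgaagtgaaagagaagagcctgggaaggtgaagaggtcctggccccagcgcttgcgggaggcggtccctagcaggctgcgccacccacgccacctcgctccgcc
Gmpr and Slc1a4 each held 2 matches of CCNCNCCC, and Fam159b and Entpd3 held 0. The 4 windows had 10, 4, 16 and 11 CG pairs, against a median of 6 over 32851 RefSeq promoter windows of the same length. Among all those windows, 45.9% held CCNCNCCC and 9.99% AGATAA. D330045A20Rik, in RefSeq Radx, held 6 matches of CCNCNCCC, all but the last of them overlapping, and Abhd6 held 0. Neither held AGATAA. A match is a description of the letters, and no match says only that these letters are not in the window. No GENCODE M21 gene overlapped these windows.

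Further steep rises came from varied families. Podxl, the sialomucin podocalyxin of progenitor and vascular surfaces, rose from an FPKM of 0.11 in FFa to 7.05 in KOb, with 2.84 in KOa (6.00 ± 0.77). Unlike the 4 genes above it was higher in KOb than in KOa (log2 ratio 1.31, q = 0.000619 in the authors' deposited table). Bambi, a decoy receptor of TGF-beta signalling, rose from an FPKM of 0.162 in FFa to 5.12 in KOb, with 5.25 in KOa (4.98 ± 0.67). Scin, which encodes the actin-severing protein scinderin, rose from an FPKM of 0.114 in FFa to 1.82 in KOb, with 1.06 in KOa (3.99 ± 1.05). Nccrp1 rose from an FPKM of 0.127 in FFa to 9.41 in KOb, with 17.2 in KOa (6.21 ± 1.16, q = 0.00933 in the authors' deposited table), and 1700097N02Rik rose from an FPKM of 1.58 in FFa to 28.9 in KOb, with 24.4 in KOa (4.2 ± 0.48). Podxl, Scin and 1700097N02Rik thus had a KOb level above that of KOa, while Bambi and Nccrp1 had not. Between the mutants Scin was called higher in KOb and Nccrp1 lower (q = 0.0272 and 0.000619 in the authors' deposited table). Bambi and 1700097N02Rik were not called there (q = 0.915 and 0.391).

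By amount of transcript the gains were of another kind, at genes already abundant in the control. B2m, the light chain of MHC class I, gained the most, from an FPKM of 494 in FFa to 771 in KOb, with 636 in KOa (0.64 ± 0.24, q = 0.00479 in the authors' deposited table). Mrpl52, a mitochondrial ribosomal protein gene, rose from an FPKM of 197 in FFa to 348 in KOb, with 303 in KOa (0.82 ± 0.16). Mt1, a metallothionein that binds zinc and copper, rose from an FPKM of 47.4 in FFa to 178 in KOb, with 176 in KOa (1.91 ± 0.20). Its neighbour Mt2 rose as well, from an FPKM of 16.5 in FFa to 61.5 in KOb, with 48.9 in KOa (1.89 ± 0.24). Rexo2, an exonuclease of mitochondria and cytosol that removes short RNAs, rose from an FPKM of 42.2 in FFa to 149 in KOb, with 129.7 in KOa (1.82 ± 0.25). Bag1, a co-chaperone of HSP70, rose from an FPKM of 57.9 in FFa to 171 in KOb, with 176 in KOa (1.56 ± 0.26). The small RNA host gene Snhg3 rose from an FPKM of 194 in FFa to 313 in KOb, with 246 in KOa (0.69 ± 0.16), and S100a6, a calcium-binding protein gene, rose from an FPKM of 231 in FFa to 366 in KOb, with 483 in KOa (0.66 ± 0.22, q = 0.00248 in the authors' deposited table). Genes of the translation apparatus gained by smaller ratios. Rpl14 rose from an FPKM of 355 in FFa to 507 in KOb, with 379 in KOa (0.52 ± 0.24, q = 0.0209 in the authors' deposited table), and Rpl21 from an FPKM of 274 in FFa to 401 in KOb, with 468 in KOa (0.55 ± 0.29, q = 0.0213 in the authors' deposited table), both of the large ribosomal subunit. Eef1a1, the elongation factor that delivers aminoacyl-tRNA, rose from an FPKM of 256 in FFa to 381 in KOb, with 333 in KOa (0.58 ± 0.28, q = 0.0119 in the authors' deposited table), and Rps2, of the small subunit, from an FPKM of 213 in FFa to 305 in KOb, with 213 in KOa (0.52 ± 0.27, q = 0.0166 in the authors' deposited table). Of the 12 largest gains in FPKM, these 4 and B2m lost their call under the normal reading.

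Many of the steepest falls left genes below 1 FPKM in both mutant groups. Gm12839 had the largest, from an FPKM of 49.99 in FFa to 0.257 in KOb, with 0.754 in KOa (-7.60 ± 1.04, q = 0.0371 in the authors' deposited table). Fn1, fibronectin, fell from an FPKM of 8.21 in FFa to 0.0564 in KOb, with 0.17 in KOa (-7.19 ± 0.86). Cd36, a scavenger receptor that takes up fatty acids, fell from an FPKM of 86.2 in FFa to 1.27 in KOb, with 2.99 in KOa (-6.08 ± 0.40). Slc30a10, a manganese exporter, fell from an FPKM of 3.07 in FFa to 0.0449 in KOb, with 0.132 in KOa (-6.09 ± 1.27). Tac2, which encodes a tachykinin peptide, fell from an FPKM of 57.9 in FFa to 1.44 in KOb, with 5.68 in KOa (-5.33 ± 0.71). Fam55b (chromosome 9, 48318004 to 48340898 of mm10) followed another course. It fell from an FPKM of 124 in FFa to 1.12 in KOb, with 47.8 in KOa (-6.80 ± 0.38), and on the log2 scale most of this fall lay between the mutants (KOb over KOa -5.42, q = 0.000619 in the authors' deposited table), whereas in FPKM the larger drop was from FFa to KOa. Runx1t1, a corepressor gene related to Cbfa2t3, fell from an FPKM of 3.48 in FFa to 0.0898 in KOb, with 0.232 in KOa (-5.28 ± 0.84). Reln, the extracellular matrix protein reelin, fell from an FPKM of 3.18 in FFa to 0.0527 in KOb, with 0.144 in KOa (-5.92 ± 0.77), and Vangl1, of planar cell polarity, fell from an FPKM of 7.05 in FFa to 0.216 in KOb, with 0.588 in KOa (-5.03 ± 0.74).

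Proteins of the red cell surface were mostly lower or not called. Of 26 tested, 3 rose (11.5%) and 8 fell (30.8%), against 12.8% and 15.2% of all genes. Under the normal reading 1 rose (3.85%) and 3 fell (11.5%), against 4.2% and 6.63% of all genes. The median log2 ratio was -0.28, or 0.23 with equal FPKM sums outside globin. Kcnn4, the Gardos potassium channel, fell from an FPKM of 98.3 in FFa to 38.3 in KOb, with 49.3 in KOa (-1.36 ± 0.29). Aqp1, the water channel, fell from an FPKM of 244 in FFa to 134 in KOb, with 145 in KOa (-0.87 ± 0.29). Slc4a1, the anion exchanger band 3, fell from an FPKM of 867 in FFa to 470.3 in KOb, with 714 in KOa (-0.88 ± 0.39, q = 0.00161 in the authors' deposited table), a call lost under the normal reading. Slc2a4, an insulin-responsive glucose transporter, fell from an FPKM of 8.9 in FFa to 3.44 in KOb, with 4.96 in KOa (-1.37 ± 0.32). In contrast Cd59a, an inhibitor of complement lysis, rose from an FPKM of 20.1 in FFa to 42.7 in KOb, with 57.1 in KOa (1.09 ± 0.30). Cd44, an adhesion receptor that declines as erythroblasts mature, rose from an FPKM of 9.36 in FFa to 14.8 in KOb, with 11 in KOa (0.66 ± 0.30), and this call was also lost under the normal reading. Slc2a1, another glucose transporter, rose from an FPKM of 0.392 in FFa to 1.3 in KOb, with 1.63 in KOa (1.74 ± 0.66, q = 0.00548 in the authors' deposited table). That call was lost under the normal reading too. Kcnn4, Aqp1 and Slc4a1 were thus among the lower members, while the transporter Slc2a1 was higher.

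Of 18 membrane skeleton genes, 12 fell (66.7%) and 0 rose, against 15.2% and 12.8% of all genes. The median was -0.60, and under the normal reading 0 rose and 2 fell. With equal FPKM sums the median was -0.09, and all 12 lower genes stayed below 0. Spnb1, erythroid beta-spectrin, fell the most in KOb, from an FPKM of 77.3 in FFa to 18.2 in KOb, with 27.5 in KOa (-2.08 ± 0.31). Epb4.1, protein 4.1 that ties spectrin to actin, fell from an FPKM of 462 in FFa to 207 in KOb, with 276 in KOa (-1.16 ± 0.37). Between KOb and KOa, where 10.0% of 10468 genes were higher and 6.19% lower, 9 of 18 skeleton genes were lower in KOb. That contrast shares the KOb libraries with the present one.

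Heme synthesis was lower at 8 of 17 genes (47.1%) and higher at 1 (5.88%), against 15.2% and 12.8% of all genes. The median was -0.42, or 0.09 with equal FPKM sums, and under the normal reading 1 rose and 3 fell. Alas2, the erythroid enzyme that commits glycine to heme, fell from an FPKM of 2082 in FFa to 861 in KOb, with 1167 in KOa (-1.27 ± 0.39). Slc25a37, mitoferrin, which carries iron into mitochondria, fell from an FPKM of 725 in FFa to 319 in KOb, with 499 in KOa (-1.18 ± 0.37). Hebp1, a heme-binding protein, fell from an FPKM of 161 in FFa to 84.2 in KOb, with 133 in KOa (-0.93 ± 0.24). The last enzyme, Fech, which inserts the iron, fell from an FPKM of 775 in FFa to 427 in KOb, with 651 in KOa (-0.86 ± 0.34, q = 0.00115 in the authors' deposited table; not called under the normal reading). The 1 riser was Clpx, from an FPKM of 3.57 in FFa to 14.6 in KOb, with 10.8 in KOa (2.03 ± 0.34), an unfoldase of the mitochondrial matrix that activates the first enzyme of the pathway. Clpx thus moved against the other called genes of the list.

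Iron genes went down in 8 of 22 (36.4%) and up in 3 (13.6%), against 15.2% and 12.8% of all genes. The median was -0.15, or 0.36 with equal FPKM sums, and under the normal reading 2 rose and 4 fell. The lower ones included the assembly line of iron-sulfur clusters. Iscu, its scaffold, fell from an FPKM of 285 in FFa to 106 in KOb, with 232 in KOa (-1.43 ± 0.23). Hscb, the co-chaperone that transfers the cluster, fell from an FPKM of 39.8 in FFa to 18.3 in KOb, with 32.3 in KOa (-1.12 ± 0.25), and Isca1, a later carrier, fell from an FPKM of 141 in FFa to 69.1 in KOb, with 91.6 in KOa (-1.03 ± 0.27). For Iscu and Hscb, KOb was also below KOa, with log2 ratios of -1.13 and -0.82 (q = 0.000619 for each in the authors' deposited table). Regulators of iron supply were among the higher members. Fam132b, the erythroid hormone erythroferrone that lowers hepcidin, rose from an FPKM of 1.42 in FFa to 9.52 in KOb, with 9.63 in KOa (2.74 ± 0.37). Tfr2, an iron sensor bound to the erythropoietin receptor, rose from an FPKM of 7.95 in FFa to 14.2 in KOb, with 13 in KOa (0.84 ± 0.29). Hmox1, the heme oxygenase, fell from an FPKM of 24.8 in FFa to 13.6 in KOb, with 18.2 in KOa (-0.86 ± 0.28) and is also a macrophage marker.

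Genes of late erythroblasts were the erythroid list with the highest share of lower calls. Of 30 tested, 25 fell and 0 rose (0 and 14 under the normal reading), against 15.2% and 12.8% of all genes, with a median of -0.75. With equal FPKM sums the median was -0.24, and 24 of the lower genes stayed below 0. Bpgm, which makes the 2,3-bisphosphoglycerate that lowers the oxygen affinity of hemoglobin, fell from an FPKM of 1926 in FFa to 581 in KOb, with 1015 in KOa (-1.73 ± 0.35). Fam46c, a noncanonical poly(A) polymerase, fell from an FPKM of 665 in FFa to 233 in KOb, with 343 in KOa (-1.52 ± 0.29). Bnip3l, the mitophagy receptor that clears mitochondria from reticulocytes, fell from an FPKM of 243 in FFa to 132 in KOb, with 171 in KOa (-0.88 ± 0.30). Car1, carbonic anhydrase, fell from an FPKM of 220.5 in FFa to 71.3 in KOb, with 53.9 in KOa (-1.63 ± 0.30) and was the 1 gene of these 4 in which KOb did not lie below KOa. Between the mutants 17 of 30 were lower in KOb and 0 higher.

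**Figure D4:**
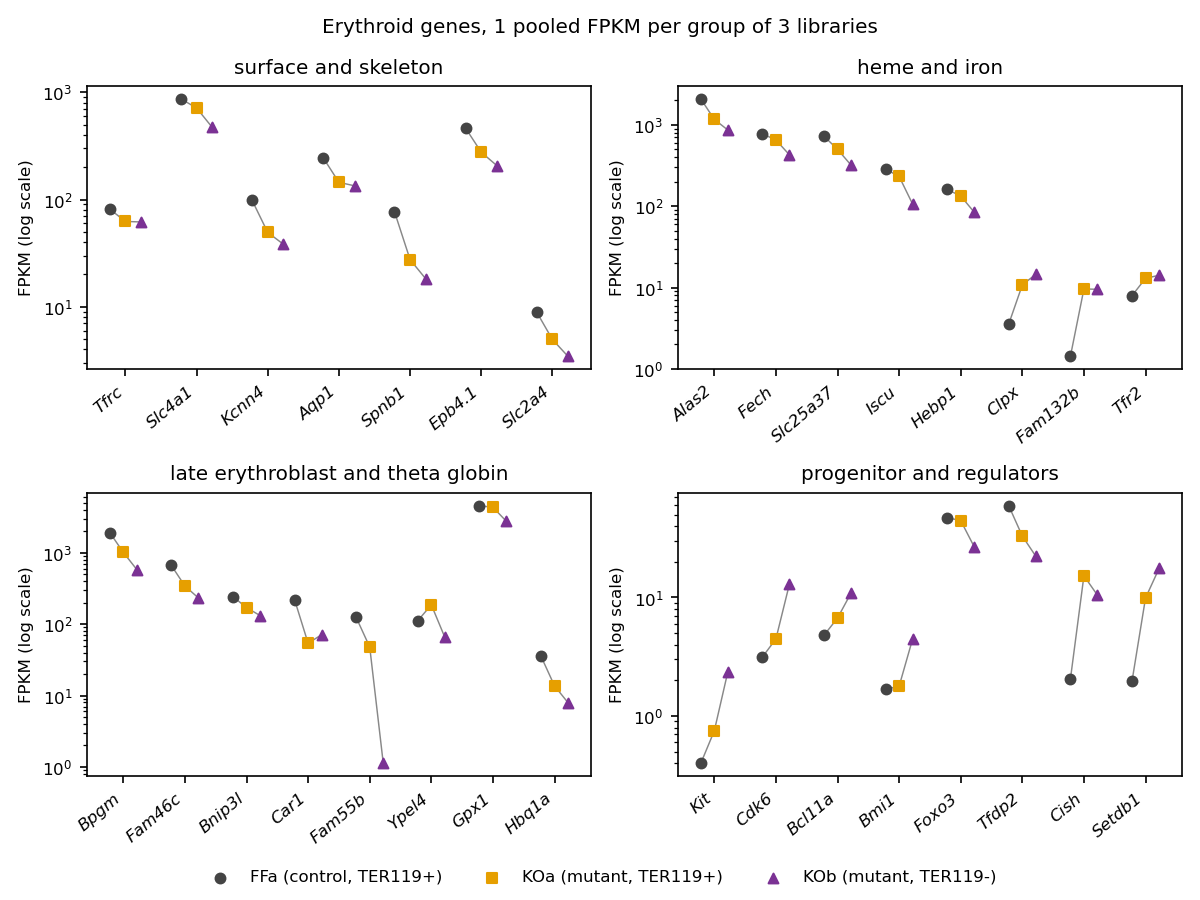
FPKM (log scale) of erythroid genes in FFa (circles), KOa (squares) and KOb (triangles), 1 pooled value per group of 3 libraries and therefore no error bars. Spnb1, Alas2 and Bpgm step down from FFa over KOa to KOb, Clpx and Fam132b are higher in both mutants, and Kit, Cdk6 and Bmi1 are highest in KOb.

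Of 8 globin genes tested under their own symbol, 2 fell (25%) and 0 rose, against 15.2% and 12.8% of all genes. The adult genes were not called. For Beta-s the table gave 565663 FPKM in the control, 715226 in KOa and 247300 in KOb (log2 ratio -1.19 ± 1.52, q = 0.551 in the authors' deposited table), with an implied error wider than the ratio. Near-identical globin genes share reads, so their split is uncertain. The theta globin genes had narrower errors. Hbq1a fell from an FPKM of 35.6 in FFa to 7.91 in KOb, with 13.6 in KOa (-2.17 ± 0.29), and Hbq1b fell from an FPKM of 135 in FFa to 75.2 in KOb, with 114 in KOa (-0.84 ± 0.22).

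Erythroid transcription factor genes went up in 3 of 28 and down in 6 (2 and 2 under the normal reading), against 12.8% and 15.2% of all genes. Tfdp2, the partner of E2F2 in late erythroid cell cycles, fell from an FPKM of 59.3 in FFa to 22.2 in KOb, with 32.9 in KOa (-1.42 ± 0.30). Foxo3, which drives antioxidant and late erythroid genes, fell from an FPKM of 47.2 in FFa to 26.7 in KOb, with 44.5 in KOa (-0.82 ± 0.28) and was lower than in KOa too (-0.74, q = 0.000619 in the authors' deposited table). Cbfa2t3, the ETO2 corepressor of early erythroid cells, rose from an FPKM of 3.49 in FFa to 9.54 in KOb, with 11.4 in KOa (1.45 ± 0.31). Bcl11a, the repressor of embryonic and fetal globin, rose from an FPKM of 4.79 in FFa to 10.9 in KOb, with 6.71 in KOa (1.18 ± 0.42). The other 19 factors were not called, Gata1 and Klf1 among them.

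Genes of stem cells and early progenitors went up in 8 of 21 and down in 5 (5 and 2 under the normal reading). These shares were 38.1% and 23.8%, against 12.8% and 15.2% of all genes. The median was 0.23, but 0.04 over the 12 members with at least 1 FPKM in the higher group. Summed FPKM of the list was 70.9 in FFa, 46.2 in KOa and 60.3 in KOb. Kit, the stem cell factor receptor of erythroid progenitors, rose from an FPKM of 0.399 in FFa to 2.36 in KOb, with 0.751 in KOa (2.57 ± 0.50). Muc13, a mucin of multipotent progenitors, rose from an FPKM of 0.195 in FFa to 1.88 in KOb, with 0.866 in KOa (3.27 ± 0.78). Bmi1, a polycomb protein of self-renewing cells, rose from an FPKM of 1.68 in FFa to 4.48 in KOb, with 1.78 in KOa (1.41 ± 0.37). These 3 were higher in KOb than in KOa too, and over the list 6 of 20 were higher and 0 lower between the mutants. Cdk6, a cell cycle kinase of progenitors in the replication list, showed the same order, 3.14 FPKM in FFa, 4.47 in KOa and 13 in KOb (2.05 ± 0.33; KOb over KOa 1.54, q = 0.000619 in the authors' deposited table). Among the lower members, Lmo4, a LIM-domain cofactor, fell from an FPKM of 7.59 in FFa to 1.68 in KOb, with 2.24 in KOa (-2.18 ± 0.49), and Vim, vimentin, fell from an FPKM of 29 in FFa to 13.4 in KOb, with 13 in KOa (-1.11 ± 0.28). Vim is abundant in leukocytes, whose marker sums were also highest in FFa; the part of those cells was not tested.

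Genes of erythropoietin and STAT5 signalling, a list of both pathway members and response genes, went up in 7 of 23 and down in 5. This made 30.4% and 21.7%, against 12.8% and 15.2% of all genes (4 and 3 under the normal reading). Cish, the STAT5 feedback inhibitor, rose from an FPKM of 2.04 in FFa to 10.4 in KOb, with 15.2 in KOa (2.36 ± 0.37). Trib3, a pseudokinase, rose from an FPKM of 0.153 in FFa to 1.47 in KOb, with 1.27 in KOa (3.27 ± 1.03, q = 0.0058 in the authors' deposited table). Pim2, a survival kinase, fell from an FPKM of 11.9 in FFa to 4.64 in KOb, with 9.42 in KOa (-1.35 ± 0.32). Gab1, a docking protein of receptor signalling, fell from an FPKM of 2.97 in FFa to 0.428 in KOb, with 0.868 in KOa (-2.79 ± 0.47), and Dusp6, the ERK phosphatase, fell from an FPKM of 3.03 in FFa to 0.67 in KOb, with 0.991 in KOa (-2.18 ± 0.50). Members of this list therefore went in both directions, with a median of 0.23.

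Cholesterol synthesis and uptake stood out among the metabolic lists by its share of higher calls. Of 24 genes, 13 rose and 0 fell (7 and 0 under the normal reading), against 12.8% and 15.2% over all genes, and the median was 0.78. Fdps, which makes farnesyl diphosphate, rose from an FPKM of 5.48 in FFa to 19.1 in KOb, with 13.7 in KOa (1.80 ± 0.37). Lss, lanosterol synthase, rose from an FPKM of 0.492 in FFa to 1.76 in KOb, with 1.27 in KOa (1.84 ± 0.55), and Cyp51, which demethylates lanosterol, rose from an FPKM of 0.77 in FFa to 2.28 in KOb, with 1.82 in KOa (1.57 ± 0.42). KOa lay between FFa and KOb in each of these 3, and 2 of 24 genes of the list were higher in KOb than in KOa.

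Fatty acid genes went up in 10 of 29 and down in 4, or 34.5% and 13.8% against 12.8% and 15.2% of all genes (8 and 3 under the normal reading). Fabp5, a fatty acid carrier, rose from an FPKM of 0.602 in FFa to 8.71 in KOb, with 2.4 in KOa (3.85 ± 0.73). Acadm, of mitochondrial beta-oxidation, rose from an FPKM of 0.562 in FFa to 2.2 in KOb, with 1.17 in KOa (1.97 ± 0.63, q = 0.00161 in the authors' deposited table). Scd1, the stearoyl-CoA desaturase, fell from an FPKM of 5.31 in FFa to 0.485 in KOb, with 0.732 in KOa (-3.45 ± 0.44), and Acsl1, which activates long-chain fatty acids, fell from an FPKM of 59.6 in FFa to 26.2 in KOb, with 28.9 in KOa (-1.19 ± 0.28). Glycolysis genes went up in 8 of 22 and down in 4, or 36.4% and 18.2% against 12.8% and 15.2% of all genes (3 and 1 under the normal reading). Pklr, the pyruvate kinase of red cells, rose from an FPKM of 4.81 in FFa to 12.2 in KOb, with 8.96 in KOa (1.35 ± 0.33), and Tpi1, triosephosphate isomerase, rose from an FPKM of 7.5 in FFa to 18.6 in KOb, with 11.3 in KOa (1.31 ± 0.39). Bpgm, the most abundant gene of the list, was among the lower ones.

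Amino acid and serine genes went up in 8 of 21 and down in 4, or 38.1% and 19% against 12.8% and 15.2% of all genes (5 and 2 under the normal reading). Psat1, of serine synthesis, rose from an FPKM of 4.39 in FFa to 14 in KOb, with 6.61 in KOa (1.68 ± 0.34). Shmt2, which passes serine carbon to mitochondrial folate, rose from an FPKM of 17.2 in FFa to 38.4 in KOb, with 31.3 in KOa (1.16 ± 0.30), and Mthfd1, a folate enzyme of the cytosol, rose from an FPKM of 8.02 in FFa to 17.4 in KOb, with 8.13 in KOa (1.12 ± 0.29). Asns, asparagine synthetase, went the other way, from an FPKM of 16.8 in FFa to 6.3 in KOb, with 7.04 in KOa (-1.42 ± 0.30). For Psat1 and Mthfd1 the rise lay mainly between the mutants, with KOb over KOa at 1.09 and 1.10 (q = 0.000619 for each in the authors' deposited table). Nucleotide genes went up in 9 of 36 and down in 5, or 25% and 13.9% against 12.8% and 15.2% of all genes (6 and 2 under the normal reading). Besides Gmpr these included Cad, which starts pyrimidine synthesis, from an FPKM of 1.25 in FFa to 2.53 in KOb, with 1.21 in KOa (1.02 ± 0.34), and Atic, which completes the purine ring, from an FPKM of 1.47 in FFa to 3.25 in KOb, with 1.41 in KOa (1.15 ± 0.40). In Cad and Atic the KOa level was slightly below that of FFa, and KOb was higher than KOa (log2 ratios 1.06 and 1.21, q = 0.000619 for each in the authors' deposited table).

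Antioxidant and pentose phosphate genes split into 7 higher and 9 lower of 30, or 23.3% and 30.0% against 12.8% and 15.2% of all genes (5 and 2 under the normal reading). Srxn1, which repairs oxidised peroxiredoxins, rose from an FPKM of 6.74 in FFa to 21.4 in KOb, with 37.4 in KOa (1.66 ± 0.29), and Gss, glutathione synthetase, rose from an FPKM of 2.7 in FFa to 8.15 in KOb, with 8.91 in KOa (1.59 ± 0.35). Gpx1, the main glutathione peroxidase of red cells, fell from an FPKM of 4559.9 in FFa to 2754 in KOb, with 4355 in KOa (-0.73 ± 0.33, q = 0.0181 in the authors' deposited table), a call lost under the normal reading. Prdx5, a peroxiredoxin, fell from an FPKM of 12.1 in FFa to 6.0 in KOb, with 2.89 in KOa (-1.01 ± 0.33, q = 0.00365 in the authors' deposited table).

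Targets of p53 went up in 12 of 24 (50%) and down in 2 (8.33%), against 12.8% and 15.2% of all genes. Their median was 0.74, and under the normal reading 6 rose and 1 fell. Cdkn1a, the p21 inhibitor of cyclin-dependent kinases, rose from an FPKM of 1.15 in FFa to 7.18 in KOb, with 8.38 in KOa (2.65 ± 0.50). Ccng1, cyclin G1, rose from an FPKM of 4.1 in FFa to 15.1 in KOb, with 10.2 in KOa (1.88 ± 0.31), and Ddit4, an inhibitor of mTORC1, rose from an FPKM of 1.61 in FFa to 5.77 in KOb, with 5.71 in KOa (1.84 ± 0.43). Perp, a membrane protein linked to p53 death, rose from an FPKM of 0.0879 in FFa to 1.42 in KOb, with 0.834 in KOa (4.01 ± 1.34, q = 0.0395 in the authors' deposited table). The target that fell the most was Rrm2b, the p53-driven ribonucleotide reductase subunit, from an FPKM of 1.64 in FFa to 0.523 in KOb, with 0.732 in KOa (-1.65 ± 0.47). KOa levels of Cdkn1a and Ddit4 lay close to those of KOb, and 1 of 24 targets was higher and 1 lower between the mutants.

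Among BCL2 family and caspase genes 4 rose and 6 fell of 26, or 15.4% and 23.1% against 12.8% and 15.2% of all genes (1 and 3 under the normal reading). Bcl2l11, the BIM killer protein, fell from an FPKM of 1.68 in FFa to 0.506 in KOb, with 0.669 in KOa (-1.73 ± 0.48), and Bmf, another BH3-only gene, fell from an FPKM of 1.02 in FFa to 0.274 in KOb, with 0.477 in KOa (-1.90 ± 0.60). Casp8, the initiator caspase of death receptors, rose from an FPKM of 3.68 in FFa to 8.01 in KOb, with 6.59 in KOa (1.12 ± 0.35). Bcl2l1, the BCL-XL survival gene of erythroblasts, fell from an FPKM of 116 in FFa to 69.9 in KOb, with 94.9 in KOa (-0.73 ± 0.27; not called under the normal reading). Stress genes of the ATF4, CHOP and ER pathways went up in 6 of 27 and down in 4, or 22.2% and 14.8% against 12.8% and 15.2% of all genes (3 and 2 under the normal reading). Chac1, which degrades glutathione, rose from an FPKM of 0.757 in FFa to 3.54 in KOb, with 4.95 in KOa (2.23 ± 0.58), and Cebpb, a stress and myeloid transcription factor, fell from an FPKM of 3.14 in FFa to 0.876 in KOb, with 0.889 in KOa (-1.84 ± 0.56). Neither list leaned to 1 side as the p53 list did.

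Heat shock proteins and co-chaperones were higher in 26 of 73 (35.6%) and lower in 1 (1.37%), against 12.8% and 15.2% of all genes. Their median was 0.26, and under the normal reading 16 rose and 1 fell. The inducible HSP70 gene Hspa1b rose from an FPKM of 0.192 in FFa to 3.05 in KOb, with 2.83 in KOa (3.99 ± 0.79), and its near-identical neighbour Hspa1a rose from an FPKM of 0.175 in FFa to 2.2 in KOb, with 3.24 in KOa (3.65 ± 0.83), so reads may be split between them. Hspd1, the HSP60 chaperonin of mitochondria, rose from an FPKM of 3.44 in FFa to 11.4 in KOb, with 3.65 in KOa (1.73 ± 0.33), and Hspe1, its HSP10 lid, rose from an FPKM of 48.3 in FFa to 162 in KOb, with 73.8 in KOa (1.75 ± 0.23). The HSP70 pair was not called between KOb and KOa. The mitochondrial pair was higher in KOb, with KOb over KOa at 1.64 and 1.13 (q = 0.000619 for each in the authors' deposited table). Dnajb2, an HSP40 co-chaperone, was the 1 called lower, from an FPKM of 49.1 in FFa to 22.3 in KOb, with 34.6 in KOa (-1.14 ± 0.30).

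Machinery of protein synthesis leaned upward by small steps in the deposited calls. Mitochondrial ribosomal protein genes went up in 25 of 76 (32.9%) and down in 2 (2.63%). Translation initiation factors went up in 20 of 54 (37%) and down in 2 (3.7%), and aminoacyl-tRNA synthetases up in 14 of 35 (40%) and down in 2 (5.71%). Of all genes 12.8% were higher and 15.2% lower. The list medians were 0.45, 0.33 and 0.44. Under the normal reading the higher and lower counts shrank to 5 and 1, 3 and 0 and 2 and 2. The higher shares were then 6.58%, 5.56% and 5.71%, near the 4.2% of all genes. The synthetases were lower in 5.71% as well, against 6.63% of all genes, so no lean was left in that list. Mrpl47, of the large mitochondrial subunit, rose from an FPKM of 4.33 in FFa to 8.99 in KOb, with 6.79 in KOa (1.05 ± 0.36, q = 0.00205 in the authors' deposited table). Eif1a, of start codon scanning, rose from an FPKM of 1.57 in FFa to 3.59 in KOb, with 1.73 in KOa (1.19 ± 0.38), and Eif5b, of subunit joining, rose from an FPKM of 9.0 in FFa to 19.5 in KOb, with 19.7 in KOa (1.12 ± 0.33). Rars, the arginyl-tRNA synthetase, rose from an FPKM of 6.59 in FFa to 14 in KOb, with 8.77 in KOa (1.08 ± 0.30). In the opposite direction Hars, the histidyl-tRNA synthetase, fell from an FPKM of 35.4 in FFa to 20.7 in KOb, with 17.1 in KOa (-0.77 ± 0.27).

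Cytosolic ribosomal protein genes went up in 9 of 82 and down in 4 (0 and 3 under the normal reading), below the shares over all genes. Rpl5, which with RPL11 restrains MDM2, rose from an FPKM of 67.8 in FFa to 112 in KOb, with 57.9 in KOa (0.73 ± 0.28; not called under the normal reading). Rpl41 fell from an FPKM of 2041 in FFa to 1241 in KOb, with 1845 in KOa (-0.72 ± 0.18, q = 0.00405 in the authors' deposited table), and Rps28 fell from an FPKM of 308 in FFa to 191 in KOb, with 189 in KOa (-0.69 ± 0.13, q = 0.00443 in the authors' deposited table). Between the mutants 25 of 82 were higher in KOb and 2 lower. Proteasome genes went up in 17 of 46 and down in 3, or 37% and 6.52% against 12.8% and 15.2% of all genes (4 and 0 under the normal reading). Psmd7, of the regulatory particle, rose from an FPKM of 12.1 in FFa to 21.9 in KOb, with 17.1 in KOa (0.86 ± 0.28), and Psmg2, an assembly chaperone, rose from an FPKM of 19.7 in FFa to 37.1 in KOb, with 25.8 in KOa (0.91 ± 0.26). Splicing factors went up in 10 of 62 and down in 0, or 16.1% and 0% against 12.8% and 15.2% of all genes (3 and 0). Snrpa1, of the U2 particle, rose from an FPKM of 19.4 in FFa to 39.9 in KOb, with 29.2 in KOa (1.04 ± 0.27). Oxidative phosphorylation subunits, by comparison, went up in 5 of 80 (6.25%) and down in 7 (8.75%), below the shares over all genes (0 and 5). Their median was -0.01, or 0.50 with equal FPKM sums. Vacuolar ATPase subunits went up in 2 of 17 (11.8%) and down in 1 (5.88%), also no more often than all genes (1 and 0).

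**Figure D5:**
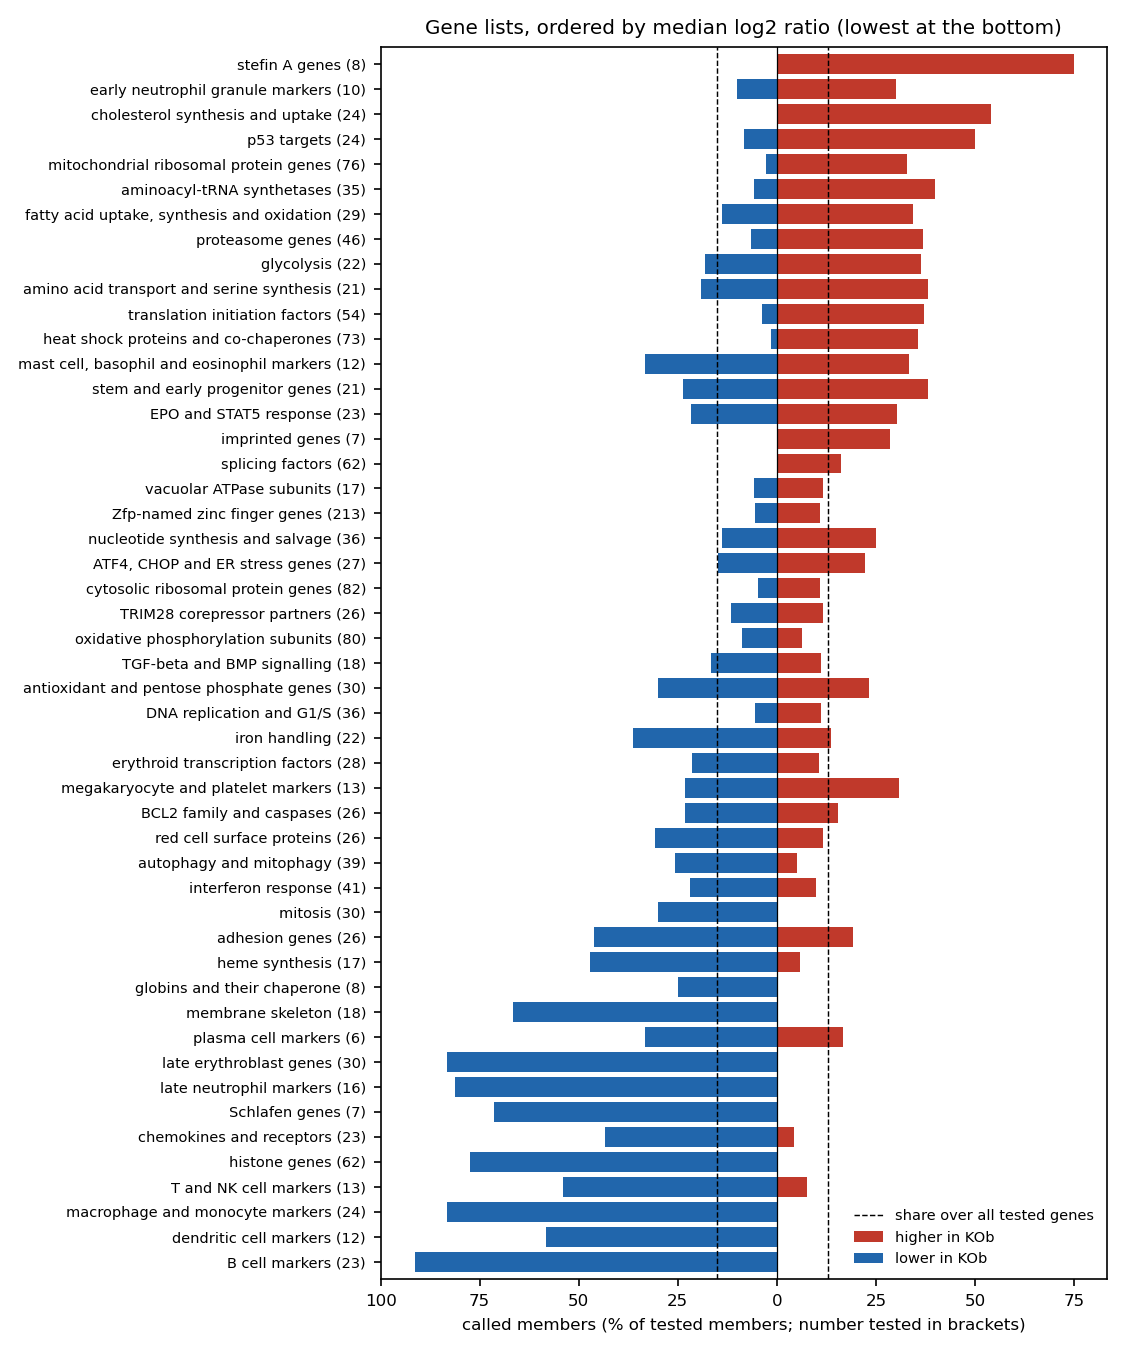
Share of the tested members of each list called higher (red, right) or lower (blue, left) in KOb, in percent, with the number tested in brackets and dashed lines at the shares over all tested genes, 12.8% and 15.2%. Lists run from the lowest median log2 ratio at the bottom (B cell markers, -3.16) to the highest at the top (stefin A genes, 2.58), and lists of under 5 tested members are left out.

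Histone genes were lower in 48 of 62 (77.4%) and higher in 0, against 15.2% and 12.8% of all genes. Their median was -1.16, and under the normal reading 0 rose and 46 fell. With equal FPKM sums the median was -0.65, and all 48 lower genes stayed below 0. They sat side by side. A run of 12 neighbouring tested genes on chromosome 13, from 23456993 to 23574190 of mm10, was called lower without a gap, 11 of them histone genes from Hist1h4h to Hist1h2bf beside Btn1a1. A second run of 8, from 21715763 to 21754503 on the same chromosome, was all histones. The most abundant, Hist1h2bb, fell from an FPKM of 10017 in FFa to 4399.7 in KOb, with 3936 in KOa (-1.19 ± 0.21), and Hist1h2bn fell from an FPKM of 6746 in FFa to 2850.0 in KOb, with 3879.8 in KOa (-1.24 ± 0.20). Hist3h2ba, in the chromosome 11 cluster, fell from an FPKM of 596 in FFa to 159 in KOb, with 254 in KOa (-1.91 ± 0.20). Order between the mutants varied. Hist1h2ae was lowest in KOa, 365 FPKM in FFa, 51.9 in KOa and 126 in KOb, while Hist1h2af was highest there, 174 FPKM in FFa, 337 in KOa and 70.7 in KOb. Near-identical histone genes share reads, so single members are uncertain, and most histone transcripts lack a poly(A) tail, so their yield can differ with library chemistry.

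Mitosis genes went down in 9 of 30 (30%) and up in 0, against 15.2% and 12.8% of all genes. The median was -0.34, or 0.17 with equal FPKM sums, and under the normal reading 0 rose and 0 fell. The lower ones differed by less than 1 on the log2 scale, with Cenpf, a kinetochore protein, falling the most, from an FPKM of 26.7 in FFa to 16.2 in KOb, with 18 in KOa (-0.72 ± 0.30). DNA replication and G1/S genes went up in 4 of 36 and down in 2, or 11.1% and 5.56% against 12.8% and 15.2% of all genes (1 and 0), and the 1 kept under the normal reading was Cdk6. Ccnd2, cyclin D2, the partner of CDK6, rose from an FPKM of 1.12 in FFa to 2.01 in KOb, with 1.02 in KOa (0.84 ± 0.37, q = 0.00289 in the authors' deposited table; not called under the normal reading).

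Of 26 genes of the TRIM28 complex and its partners, 3 were higher and 3 lower, Trim28 itself counted among the lower (3 and 1 under the normal reading). These shares, 11.5% and 11.5%, lay near the 12.8% and 15.2% of all genes. Setdb1, the histone H3 lysine 9 methyltransferase of the complex, rose from an FPKM of 1.96 in FFa to 17.6 in KOb, with 9.9 in KOa (3.16 ± 0.55) and was higher in KOb than in KOa (0.83, q = 0.00328 in the authors' deposited table). Trim24, a paralog of Trim28, rose from an FPKM of 5.92 in FFa to 21.1 in KOb, with 23.6 in KOa (1.83 ± 0.30). Chd3, a remodeller of NuRD, rose from an FPKM of 1.48 in FFa to 3.4 in KOb, with 3.42 in KOa (1.20 ± 0.34). The genes of the HP1 proteins, HDAC1 and HDAC2 and the other members were not called, apart from Atf7ip, which stabilises SETDB1 and fell from an FPKM of 21.9 in FFa to 13 in KOb, with 19.2 in KOa (-0.75 ± 0.28; not called under the normal reading), and Ehmt1, with 3.08 FPKM in FFa, 2.04 in KOa and 2.12 in KOb (q = 0.039 in the authors' deposited table; not called under the normal reading). Zfp-named zinc finger genes, taken by symbol and so a mixture of KRAB genes, whose products recruit TRIM28, and genes without that domain, went up in 23 of 213 and down in 12 (6 and 1), below the shares over all genes. Zfp385a rose from an FPKM of 2.33 in FFa to 7.75 in KOb, with 5.17 in KOa (1.73 ± 0.35). Of 7 imprinted genes 2 rose (28.6%) and 0 fell (0 and 0), against 12.8% and 15.2% of all genes. Of 3 germline genes 1 rose and 1 fell, too few to compare with those shares.

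Clustered gene families gave some of the largest list medians, beside calls of 12.8% higher and 15.2% lower over all genes. Stefin A genes, cysteine protease inhibitors of myeloid cells that lie side by side, went up in 6 of 8 and down in 0 (5 and 0 under the normal reading), with a median of 2.58. Their summed FPKM was 27 in FFa, 216 in KOa and 143 in KOb. BC100530 rose from an FPKM of 2.55 in FFa to 29.8 in KOb, with 41.2 in KOa (3.55 ± 0.41), and Stfa1 rose from an FPKM of 6.74 in FFa to 38.6 in KOb, with 53.1 in KOa (2.52 ± 0.28). Members are close copies and may share reads. Apolipoprotein L genes went up in 3 of 4 and down in 0 (1 and 0), with Apol11a at 2.01 FPKM in FFa, 12.3 in KOa and 7.35 in KOb (1.87 ± 0.43). The stefin A sum and Apol11a were highest in KOa rather than KOb. Schlafen genes, growth regulators of lymphoid and myeloid cells, went down in 5 of 7 and up in 0 (0 and 3), and Slfn4 fell from an FPKM of 11 in FFa to 1.62 in KOb, with 1.64 in KOa (-2.77 ± 0.34). Myeloid and lymphoid marker sums fell from FFa to both mutants as well, and their part in the Schlafen result was not tested.

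Interferon response genes went up in 4 of 41 and down in 9 (2 and 5 under the normal reading), with a median of -0.30, or 0.21 with equal FPKM sums. Ifi27l2a fell from an FPKM of 25.9 in FFa to 2.05 in KOb, with 2.21 in KOa (-3.66 ± 0.49), and Ifitm3, a membrane protein that blocks virus entry, fell from an FPKM of 244 in FFa to 87.3 in KOb, with 140.2 in KOa (-1.48 ± 0.21). Igtp, an interferon-gamma-induced GTPase, rose from an FPKM of 8.09 in FFa to 16.8 in KOb, with 24.8 in KOa (1.06 ± 0.30). At 2 weeks after the poly(I:C) course 9.76% of the list was thus higher and 22% lower, against 12.8% and 15.2% of all genes. Isg15, a ubiquitin-like modifier, stood at 109 FPKM in FFa, 211 in KOa and 158 in KOb (q = 0.0156 in the authors' deposited table; not called under the normal reading). Autophagy and mitophagy genes went down in 10 of 39 (25.6%) and up in 2 (5.13%), against 15.2% and 12.8% of all genes. The median was -0.30, or 0.21 with equal FPKM sums, and under the normal reading 0 rose and 2 fell. Calcoco1, an autophagy receptor, fell from an FPKM of 21.1 in FFa to 10.4 in KOb, with 15.5 in KOa (-1.03 ± 0.29).

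Genes of signalling and adhesion to the marrow were mostly lower where called. Adhesion genes went down in 12 of 26 (46.2%) and up in 5 (19.2%), against 15.2% and 12.8% of all genes. The median was -0.42, or 0.09 with equal FPKM sums, and under the normal reading 3 rose and 5 fell. Vcam1, a ligand that macrophages of erythroblastic islands present, fell from an FPKM of 4.91 in FFa to 2.25 in KOb, with 3.63 in KOa (-1.12 ± 0.35) and is counted among the macrophage markers too. Cd9, a tetraspanin, rose from an FPKM of 8.7 in FFa to 15.8 in KOb, with 8.54 in KOa (0.86 ± 0.30), and Itga2b, the platelet integrin of early progenitors and megakaryocytes, rose from an FPKM of 1.04 in FFa to 4.55 in KOb, with 3.76 in KOa (2.13 ± 0.40). Chemokines and their receptors went down in 10 of 23 (43.5%) and up in 1 (4.35%), against 15.2% and 12.8% of all genes. Under the normal reading 0 rose and 5 fell. Ccl5, made mainly by T and NK cells, fell from an FPKM of 42.1 in FFa to 11.9 in KOb, with 13.5 in KOa (-1.82 ± 0.26). The lower chemokine genes are leukocyte genes, and the summed markers of those cells were lower in KOb too, a relation that was not tested. TGF-beta and BMP genes went up in 2 of 18 and down in 3, or 11.1% and 16.7% against 12.8% and 15.2% of all genes (1 and 1), with Id3, a BMP target, falling from an FPKM of 6.8 in FFa to 0.756 in KOb, with 0.927 in KOa (-3.17 ± 0.66).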

How the data were processed

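RNA was purified on columns with DNase treatment and libraries were made with a NuGEN Encore kit, per the labels' protocols. The submitters' processing notes name Cuffdiff 2.1.1, TopHat2 2.0.8b, Bowtie2 2.1.0 and the build mm10. Annotation, filters, scaling and strand setting were not given in the sources used here. Per the file headers, the authors deposited FPKM per gene and group, the log2 ratio of these values, a test statistic, which is a score, and its p-value and q-value. Of 23285 genes, 10584 had a completed test, 12553 were not tested and 148 had too few data.

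Calls are a deposited q below 0.05. The authors adjusted q over all 3 comparisons, and the smallest deposited p, 5e-05, was reached by 1186 genes. Standard errors, list counts, medians and sums were computed here with Python 3.11.15, numpy 2.4.6, pandas 2.3.3 and scipy 1.17.1, and figures with matplotlib 3.10.9. The p-value adjustment and the call rule of the normal reading were tested on simulated data. The implied standard errors were taken as given there and were not themselves checked. No values per library were used, so no test was run here, depth is unknown and no interval from counts is given. If libraries of a group are not separate mice, which the labels do not state, the deposited p-values measure technical spread only.

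The contrast, the 53 lists and the naming rule were chosen with earlier results of these data known, so list counts are descriptions. Named genes are Trim28 and Tfrc, the 15 largest rises and falls by log2 ratio among called genes whose higher FPKM is at least 1, the 12 largest by FPKM difference outside globin, up to 4 called members of each list in each direction, and the 5 longest runs of called neighbours. Genes ordered in opposite ways in KOb and KOa are named for that reason. Some lists share genes. A few genes that the rule names are not reported here. Genes joined to another in 1 entry, such as Eno1, were not used in lists.

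Alternatives were the adjustment over this contrast alone, the statistic taken as a normal deviate, a q below 0.01, minimum FPKM of 1 and 5, centring on the median, equal FPKM sums outside globin and a pseudocount of 1. The normal reading of each list was added after seeing the data. Of 30 genes with the largest rises and falls, 20 matched RefSeq promoters.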

Additional observations from a re-analysis of the deposited data

Results flagged for a closer look

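In 12 genes KOb and KOa were each called against FFa but in opposite directions, and the authors' deposited table also called KOb against KOa, with a q of 0.000619 for each. The 2 contrasts with FFa share the FFa libraries. Higher than FFa in KOb and lower in KOa were Ppia, which encodes cyclophilin A (65.7 FPKM in FFa, 44.4 in KOa and 128.6 in KOb, log2 ratio of KOb over KOa 1.53), Ppan, a ribosome assembly gene (3.40, 1.92 and 5.46 FPKM, 1.5), and Cd48, a leukocyte surface gene (7.23, 4.62 and 12.2 FPKM, 1.40). The same order was seen in Tagln2, an actin-binding protein gene (23.6, 13.7 and 34.7 FPKM, 1.34), Suclg1 of the citric acid cycle (5.39, 3.44 and 8.16 FPKM, 1.25) and Rpl10a (169, 117 and 239.8 FPKM, 1.03). Lower than FFa in KOb and higher in KOa were Hist1h2af (174, 337 and 70.7 FPKM, -2.25), Hist1h3e (123, 197 and 56.1 FPKM, -1.81), Hist1h2an (44.4, 72.8 and 26.5 FPKM, -1.46) and Hist1h2ak (926, 1482 and 551 FPKM, -1.43). Ypel4 of the late erythroblast list (112, 187 and 65.2 FPKM, -1.52) and Abi3, a regulator of actin assembly (18.6, 26.2 and 12.4 FPKM, -1.08), were ordered likewise. Near-identical histone genes share reads.

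The authors' deposited table holds 6 entries with too few data for a test but a higher FPKM in KOb than in the control. They were Gm15772 (512 in FFa and 606 in KOb), Rplp2-ps1 (18.7 and 24.0), Nutf2-ps1 (4.64 and 6.16), Gm7334 (1.88 and 3.82), Amd2 (2.77 and 3.56) and Gm6644 (1.07 and 1.56). These differences were not tested.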

How the results depend on the processing

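The counts of 1352 higher and 1614 lower genes stayed within 1.5 times with p-values adjusted over this contrast alone and an FPKM minimum of 1. Centring and equal FPKM sums outside globin kept the deposited calls and could only move called genes between the directions. With equal sums 1431 were higher and 1535 lower, which cannot show whether the calls themselves depend on scaling. The counts became 718 and 854 with an FPKM minimum of 5, and 445 and 702 with the statistic taken as a normal deviate. With a q below 0.01, 825 genes were higher. Of 332 named genes that were called, 231 kept the call under that reading of the statistic and 101 lost it. With equal FPKM sums 7 of 333 named log2 ratios changed sign, all of them called lower: Slc16a1 (0.00195), Slc43a1 (0.00698), Rpl38 (0.0120), Mrpl34 (0.0245), Atp6v0d1 (0.0330), Eif3k (0.0681) and Ppp1r15a (0.0740). The ratio of Trim28 was then -1.94. No named ratio changed sign with centring or a pseudocount of 1, but that pseudocount moved 104 of them by more than their implied standard error. No paired analysis was possible because the deposited values are pooled per group, and for the same reason no library could be left out. Without values per library, differences at low FPKM rest on an unknown number of fragments, and ratios from a control near 0 are loosely determined.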

Other observations

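Among runs of neighbouring called genes without histones, 2 of 6 genes each were the longest. One, on chromosome 13 (111686178 to 112867680 of mm10), held Mier3, Map3k1, Il6st, Ddx4, Slc38a9 and Ppap2a, all lower in KOb. The other was on chromosome 1 (173630859 to 173942492), where 6 interferon-inducible genes of the HIN-200 family and its neighbours were all lower in KOb. Pyhin1 stood at 3.51 FPKM in FFa, 0.708 in KOa and 0.476 in KOb (-2.88 ± 0.51). Mndal stood at 3.83 FPKM in FFa, 1.05 in KOa and 1.69 in KOb (-1.18 ± 0.42, q = 0.00205 in the authors' deposited table). Pydc3, AI607873, Ifi204 and Ifi203 were lower as well, by calls that were lost when the statistic was taken as a normal deviate. The run of 7 on chromosome 11 (58918057 to 59163742) held Btnl10, a butyrophilin-like gene, at 2.35 FPKM in KOb against 11.5 in FFa (-2.29 ± 0.41) and the ubiquitin ligase gene Rnf187 at 76.1 FPKM in FFa, 37.2 in KOa and 37.9 in KOb (-1.01 ± 0.27) beside 3 histone entries. Over all chromosomes 101 runs of at least 3 neighbouring tested genes were called in the same direction, 37 higher and 64 lower, and neighbouring copies of a family can share reads.

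Short transcripts had a lower median log2 ratio. Among 213 genes whose longest GENCODE M21 transcript is up to 600 bases, 13 were higher (6.1%) and 53 lower (24.9%), with a median of -0.52. Over all genes 12.8% were higher and 15.2% lower. Without histone genes the counts were 13 and 27 of 182, or 7.14% and 14.8%, with a median of -0.36. The share of lower calls was then near that of all genes. Equal FPKM sums outside globin would raise each median by 0.51. Genes with transcripts over 600 and up to 2500 bases had a median of 0.04 over 3575 genes. A length was found for 90.4% of the tested genes.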
